A study of Mus musculus with 53 samples.

Results

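The genes described here encode the proteins of the cytosolic ribosome, with a few close relatives, in mouse liver. They were chosen by symbol: protein-coding genes named Rpl or Rps followed by a digit, Rplp0, Rplp1, Rplp2 and Rpsa, without the Rps6k kinases and without pseudogenes. A gene also had to be in all 3 deposited count tables and to reach a mean of at least 1 CPM (counts scaled to the library total) in at least 1 of the 9 groups. Of 86 protein-coding genes with such a symbol, 83 met the rule, out of 36410 genes shared by the 3 tables. They comprise 42 proteins of the large subunit, 3 proteins of its stalk, 31 proteins of the small subunit, 6 paralogs (Rpl3l, Rpl7l1, Rpl22l1, Rpl36al, Rps27l and Rps27rt) and Rps19bp1, which binds a ribosomal protein but is not part of the ribosome. Just outside the rule were Rpl10l with 0 CPM in every group, Rpl39l with a highest group mean of 0.0641 CPM, and Rpl24, which only the hepatectomy table holds. Just inside were Rpl3l, with a highest group mean of 3.25 CPM, and Rps19bp1, with 14.9 CPM. The rule used the level, so levels are given as a description, whereas differences between groups did not enter it.

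A ribosome is built from a small subunit, which reads the messenger RNA, and a large subunit, which joins the amino acids, and each subunit holds ribosomal RNA and a set of proteins in fixed proportions. Growing cells make more ribosomes before and while they divide, and hepatocytes do so during regeneration. The messenger RNAs of most of these proteins begin with a run of C and U, through which mTOR signalling controls their translation, so the RNA level and the amount of protein made can differ.

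Whole liver from male C57BL/6J mice was studied in 3 experiments on Bmp8b, which encodes a secreted signal of the BMP family, with 53 liver samples and 1 library each. In the diet experiment, mice aged 9 weeks ate a low-fat control diet (9 wild-type livers) or a Western diet (7 wild-type livers and 7 labelled Bmp8b knockout) for 32 weeks. In the toxin experiment, mice aged 16 weeks were injected with 2 µl per g body weight of olive oil (6 wild-type livers) or of an equal mix of carbon tetrachloride (CCl4, a toxin that hepatocytes activate) and olive oil (4 wild-type livers and 6 labelled knockout), and livers were taken after 3 days. In the surgery experiment, mice aged 16 weeks underwent partial hepatectomy, with liver taken at resection, called day 0 here (5 wild-type livers), and 3 days later (5 wild-type livers and 4 labelled knockout). The labels do not say how the knockout allele was made. No knockout livers on low-fat diet, after oil alone or at day 0 were analysed here, so an effect of the label cannot be told apart from its effect without challenge.

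Total counts ran from 2450358 to 15196537 per library. Bmp8b, the targeted gene, was near the limit of detection and was not lower in livers labelled knockout: after CCl4 its mean was 0.464 ± 0.629 CPM (SD, n = 4) in the wild type, against 1.18 ± 1.04 (n = 6) under the knockout label. On Western diet it was 1.07 ± 0.491 (n = 7) against 1.53 ± 0.523 (n = 7), and at day 3 of surgery 0.848 ± 0.407 (n = 5) against 2.12 ± 0.703 (n = 4). Its mean was thus higher under the knockout label in each experiment. Its level does not check the label, since the deleted part is not given. Hepatocyte markers were high in every group, so the tissue matched its label, but 1 day 3 wild-type library (liver 12) held 11484 counts of 10 skeletal muscle genes and another (liver 14) also held all 10, against summed counts of 0 to 9 in the other 12 livers of that experiment. After CCl4, livers 34 (wild type) and 35 (labelled knockout) stood apart from the other 8 by low cell division markers, as described with the CCl4 result. Livers are numbered by mouse as in their titles, without the letter N that some surgery titles carry (12N at day 0, 12N, 13N, 14N and 19N at day 3). Within a whole liver fewer cells of a type cannot be told apart from less RNA per cell.

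The 7 promoters below belong to the members that rose most after CCl4 and have an entry in RefSeq, and they are shown because these genes moved together. Each line runs from 60 bases before the annotated start of transcription to 20 bases after it (GRCm38.p6), and capitals mark a C followed by at least 4 C or T within 10 bases of the start, and the word CCGGAAG, the core recognised by ETS factors.
Rpl22l1: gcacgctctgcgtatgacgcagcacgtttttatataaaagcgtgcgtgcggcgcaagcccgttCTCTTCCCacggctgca
Rpl39: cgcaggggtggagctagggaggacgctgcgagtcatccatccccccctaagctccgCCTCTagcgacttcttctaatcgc
Rpl13: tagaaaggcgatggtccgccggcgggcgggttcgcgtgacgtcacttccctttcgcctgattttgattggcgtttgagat
Rps12: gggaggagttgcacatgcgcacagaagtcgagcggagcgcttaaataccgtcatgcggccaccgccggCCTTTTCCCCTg
Rps15a: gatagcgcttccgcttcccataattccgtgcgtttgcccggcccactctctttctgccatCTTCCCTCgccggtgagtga
Rplp2: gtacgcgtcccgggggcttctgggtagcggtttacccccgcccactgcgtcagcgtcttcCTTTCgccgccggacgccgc
Rps10: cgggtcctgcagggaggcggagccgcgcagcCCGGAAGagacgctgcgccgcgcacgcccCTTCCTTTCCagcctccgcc
These windows lie at chr3:28805448-28805527 (plus strand), chrX:37085203-37085282 (minus), chr8:123102290-123102369 (plus), chr10:23787190-23787269 (minus), chr7:118116128-118116207 (minus), chr7:141447591-141447670 (plus) and chr17:27635225-27635304 (minus), in the order printed. A marked run of C and T was found in 6 of the 7 and not in that of Rpl13, and CCGGAAG only in that of Rps10.

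RefSeq promoter windows, 250 bases before to 50 after a start, were found for 63 of the 83 members, with 75 starts. The C followed by at least 4 C or T stood exactly at the annotated start in 14 of the 75 (18.7%), against 2.51% of all 32544 starts, and within 10 bases of it in 53.3% against 30.7%. CCGGAAG on either strand was found in 26 of the 75 windows (34.7%), against 8.91% of all windows. The GC box GGGCGG was in 61.3% against 35.9% and the TATA word TATAAA in 9.33% against 13.6%. None of these 3 words contains another, and both strands were searched. Of members called higher after CCl4 in wild-type livers, 11 of 30 with an entry held CCGGAAG, as did 14 of 32 that were not called. The word was thus found in 36.7% of those that rose and in 43.8% of the others, which describes the windows and locates no binding site. The run of C and T within 10 bases of a start was in 17 of 30 called members (56.7%) and in 20 of 32 not called (62.5%).

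Members differed widely in level. Per kb of transcript, in low-fat livers, the highest means were those of Rpl4 at 323 ± 19.3 CPM per kb (SD, n = 9), Rpl7 at 226 ± 17.3, Rpl23 at 212 ± 16.3, Rps9 at 211 ± 34.0 and Rps18 at 210.0 ± 28.9. Rpl4 stood above the spread of the next, while Rpl7 to Rps18 were within 1 SD of one another. In oil livers the order began with Rplp1, an acidic stalk protein, at 444 ± 30.7 CPM per kb (n = 6), followed by Rpl4 at 358 ± 13.6, Rps9 at 305 ± 17.3, Rpl13a at 276 ± 20.1 and Rps15 at 270.1 ± 10.5. The lowest in both experiments were Rpl15, the paralogs Rpl7l1 and Rpl22l1, Rps15a, Rps19bp1 and Rpl3l, from 24.5 CPM per kb for Rpl7l1 down to 0.0480 for Rpl3l in low-fat livers. The order depends on the transcript taken for the length, which was 1 per gene. That of Rps15a was 5179 bases long, and without division by length its mean was 62.2 CPM in low-fat and 60.9 CPM in oil livers (unscaled CPM).

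Together the 83 genes took 0.694% ± 0.0645 of the counts on low-fat diet (SD, n = 9), while on Western diet the share was 0.715% ± 0.0656 for the wild type (n = 7) and 0.696% ± 0.0525 for the knockout label (n = 7). After oil they took 0.835% ± 0.0316 (n = 6), and after CCl4 1.28% ± 0.223 for the wild type (n = 4) and 1.07% ± 0.0686 for the knockout label (n = 6). In the surgery experiment the share was 0.317% ± 0.0176 at day 0 (n = 5), and at day 3 it was 0.303% ± 0.0208 for the wild type (n = 5) and 0.323% ± 0.0258 for the knockout label (n = 4). Every CCl4 liver lay above every oil liver, whereas the groups overlapped in the other experiments.

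**Figure D1:**
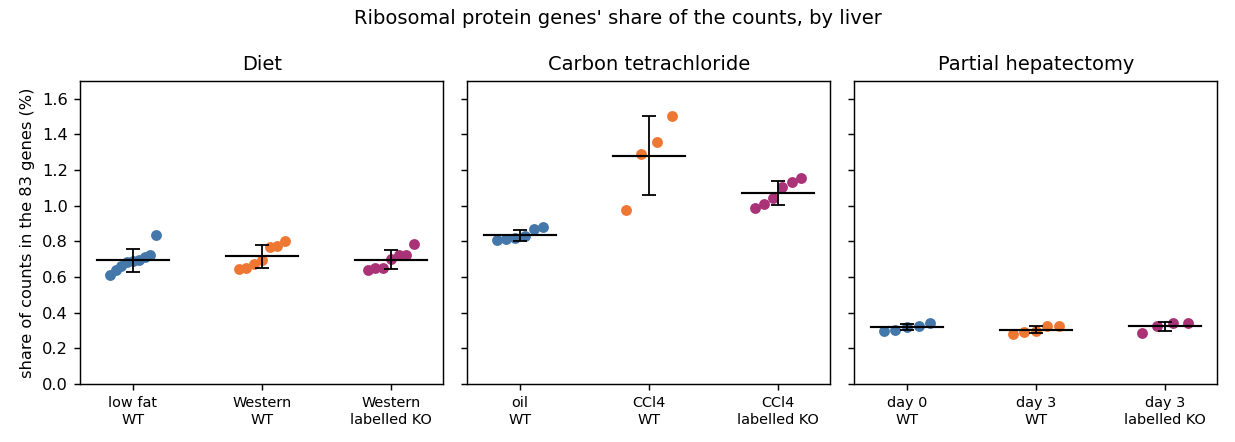
Share of counts (%, vertical axis) taken by the 83 ribosomal protein genes in each liver (points) of the 9 groups, with mean (line) and SD (bars). The CCl4 livers, from 0.975% upward, all lie above the oil livers, which reach 0.880%. The surgery livers lie lowest, but shares of these genes cannot be compared across the count tables of the experiments.

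Wild-type livers 3 days after CCl4 had higher levels of ribosomal protein RNAs of both subunits than livers after oil. Of 82 members tested with edgeR's quasi-likelihood test, 36 rose at an adjusted p under 0.05 and none fell, where 11.1% of all 11663 genes tested rose and 8.87% fell. The median log2 fold change was 0.39 over members and 0.05 over all genes, and 79 of 82 members were above 0 (53.8% of all genes). In 42 members every CCl4 liver was above every oil liver, which held for 7.91% of all genes. Called members came from all structural parts: 17 of 31 small-subunit proteins, 16 of 42 large-subunit proteins and 2 of 3 stalk proteins, with medians of 0.43, 0.34 and 0.53, but only 1 of 5 paralogs tested.

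**Figure D2:**
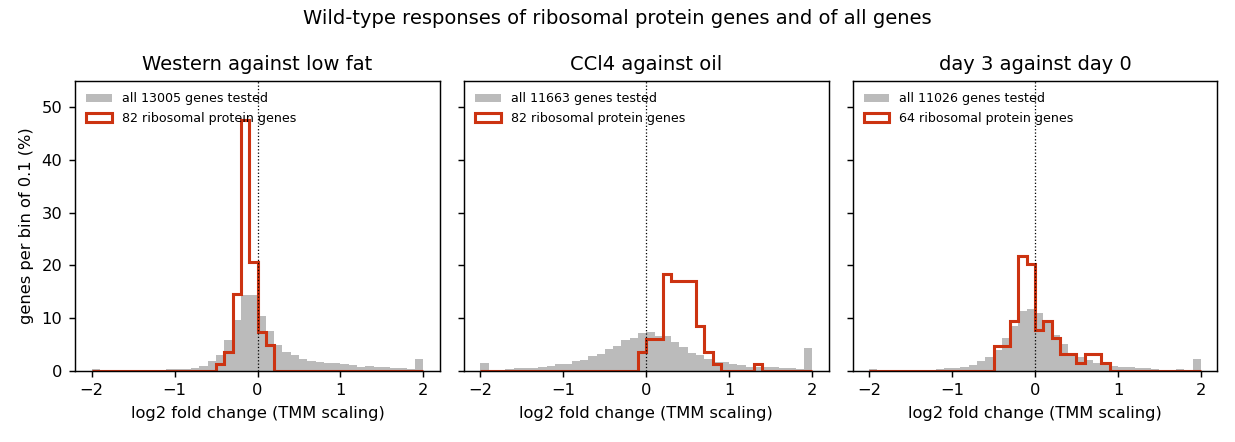
Log2 fold changes (horizontal axis, values beyond 2 placed in the end bins) of ribosomal protein genes (red outline) and of all genes tested (grey), as percent of genes per bin, for the wild-type comparisons. The members form a narrow peak left of 0 on Western diet, lie mostly right of 0 after CCl4, and spread around 0 after surgery.

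The largest rise was that of Rpl22l1, a paralog of the large-subunit protein Rpl22. Its level was 11.2, 7.85, 6.95, 7.65, 8.47 and 11.8 CPM in the 6 oil livers and 24.7, 25.3, 23.8 and 17.2 CPM in the 4 wild-type CCl4 livers, so the groups did not overlap. It was 2.53-fold higher after CCl4 (log2 1.34 ± 0.19, SE), with an adjusted p of 0.000363 in edgeR's quasi-likelihood test. Rpl22 itself, which binds RNA at the surface of the large subunit, ranged from 72.3 to 86.2 CPM after oil and from 83.6 to 95.0 CPM after CCl4 (log2 difference 0.14 ± 0.11, adjusted p 0.386 in the same edgeR test; called with total counts, at 0.38). The paralog thus stayed below its partner in every liver, and whether their fold changes differed was not tested.

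Rpl39, a short protein of the tunnel through which the new chain leaves the ribosome, stood at 29.8, 31.9, 23.2, 17.5, 24.3 and 24.4 CPM after oil and at 49.1, 47.8, 43.0 and 36.1 CPM after CCl4. All 4 CCl4 livers were above all oil livers, and the level was 1.75-fold higher (log2 0.81 ± 0.20, edgeR adjusted p 0.0101). Rpl3, a core protein near the catalytic centre, rose 1.65-fold, from 84.4 to 124 CPM after oil to between 175 and 196 CPM after CCl4 (edgeR adjusted p 0.00206). Rps4x, the X-linked protein of the small subunit, stood at 163, 162, 146, 158, 160 and 167 CPM after oil against 228, 245, 245 and 246 CPM after CCl4. That was a 1.51-fold rise with an edgeR adjusted p of 0.00158. Rpl13 rose 1.64-fold, Rps12 1.63-fold, Rps15a 1.61-fold and Rps10 1.55-fold.

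Among the stalk proteins, which recruit elongation factors to the large subunit, Rplp0 rose 1.44-fold (200 to 255 CPM after oil; 335, 286, 309 and 428 CPM after CCl4; edgeR adjusted p 0.0262). Rplp2 rose 1.55-fold. Their partner Rplp1 was at 201 to 247 CPM after oil and at 195, 227, 289 and 294 CPM after CCl4, and these groups overlapped (log2 0.18 ± 0.15, edgeR adjusted p 0.423). Rpsa, the small-subunit protein known also as the laminin receptor, rose 1.50-fold, and Rps27a, made as a fusion with ubiquitin, 1.45-fold. Rps6, the small-subunit protein phosphorylated downstream of mTOR, did not pass (log2 0.30 ± 0.15, edgeR adjusted p 0.166), but was called with the sequencing index as a covariate (0.65) and with total counts (0.55). Of the pair that binds Mdm2 when free of ribosomes, Rpl11 rose 1.27-fold and Rpl5 was not called (log2 0.29 ± 0.17, edgeR adjusted p 0.234) except with the index as a covariate (0.59) or with total counts (0.54).

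Some members were near 0. Rps2 was at 220 to 260 CPM after oil and 218 to 255 CPM after CCl4, a log2 fold change of -0.01 ± 0.12. Rps27l, the paralog of Rps27 induced by p53, was at 95.9 to 136 CPM after oil and at 101, 131, 135 and 73.6 CPM after CCl4, with a log2 fold change of -0.09 ± 0.19. Rpl36 was at 45.7 to 53.6 CPM after oil and at 34.7, 36.9 and 38.0 CPM in CCl4 livers 4, 5 and 7, but at 81.6 CPM in liver 34. Without livers 34 and 35, Rpl36 fell (log2 -0.47, edgeR adjusted p 0.0187), against -0.08 with all livers. Rps27l was called lower with the sequencing index as a covariate (-0.46). Rps2 and Rpl36 were picked after their values were seen.

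Among the paralogs other than Rpl22l1, none passed after CCl4 in the test with TMM scaling and no covariate. The log2 fold changes were 0.24 ± 0.15 for Rpl7l1, 0.18 ± 0.19 for Rpl36al and 0.51 ± 0.20 for Rps27rt, and that of Rps19bp1 was 0.16. The partner of Rpl36al, Rpl36a, rose 1.31-fold (edgeR adjusted p 0.029), and Rps27, which nearly shares its sequence with Rps27rt, was at 0.52 ± 0.22 (edgeR adjusted p 0.109). Both Rps27rt and Rps27 were called with the sequencing index as a covariate (0.79 and 0.75) and with total counts (0.76 and 0.78), and Rps27rt also with upper-quartile scaling (0.56).

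**Figure D3:**
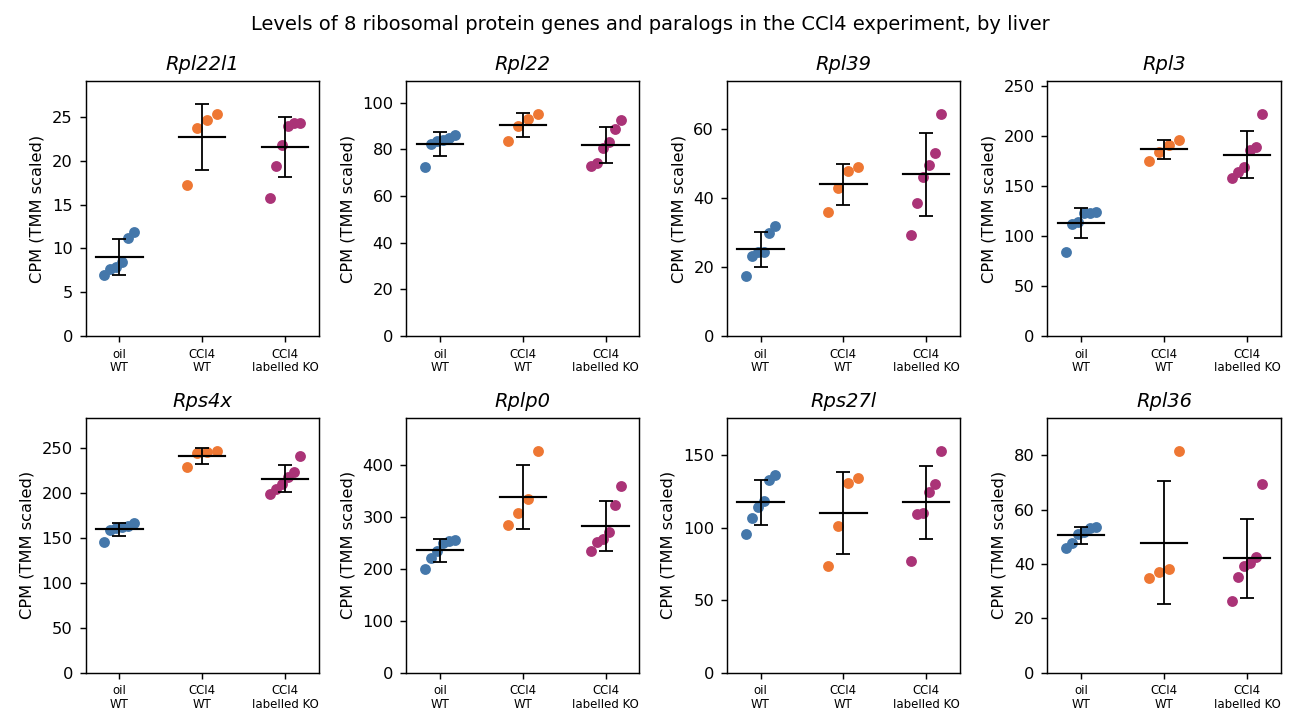
Levels (TMM-scaled CPM, vertical axes) of 8 members in each liver of the toxin experiment (points), with mean (line) and SD (bars). Rpl22l1, Rpl39, Rpl3, Rps4x and Rplp0 are higher in all wild-type CCl4 livers than after oil, while Rpl22, Rps27l and Rpl36 overlap.

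Livers labelled knockout showed the same direction after CCl4, measured against the same 6 oil livers. Of 82 members 15 rose and none fell, against 5.91% of all genes that rose and 3.4% that fell, and the median log2 fold change was 0.22 over members and 0.03 over all genes. Non-overlapping rises were found for 13 members, against 3.04% of all genes. Rpl22l1 was at 24.3, 23.9, 19.5, 24.3, 21.9 and 15.8 CPM, a 2.40-fold rise over oil (edgeR adjusted p 0.000742), Rpl39 rose 1.86-fold, Rpl3 1.60-fold and Rps4x 1.35-fold. Set directly against wild-type CCl4 livers, no member was called in either direction (0.00857% of all genes were, higher). DESeq2 also called none, and 2 members had an unadjusted edgeR p under 0.05: Rps27a (log2 -0.33 ± 0.14) and Rpl34 (-0.25 ± 0.11). About 1 in 20 genes would pass that unadjusted threshold by chance, and the share over all genes was not counted. The level was lower in livers labelled knockout in 75 of 82 members, and 49.1% of all genes were above 0. The median was -0.14 over members and -0.01 over all genes. Without wild-type liver 34 the member median was -0.06, with 17 of 82 members above 0.

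Individual CCl4 livers differed in how far their members stood above oil. The median log2 difference from the oil mean was 0.26, 0.27 and 0.37 in wild-type livers 4, 5 and 7 and 0.58 in liver 34. In livers labelled knockout it was 0.08, 0.23, 0.09, 0.26 and 0.22 in livers 2, 8, 9, 12 and 22, and 0.45 in liver 35. Livers 34 and 35 had the highest member medians of their groups and the lowest mean log2 difference of the cell division markers, 0.40 and 1.24, against 3.96 to 5.95 in the other 8. They also had the highest medians of ribosome assembly factors, 0.90 and 0.63, against -0.11 to 0.41 in the others. Without both livers, 34 of 82 members were called higher in wild type and 1 lower, with a median of 0.28, where 13.0% of all genes were called higher and 11.9% lower. Among wild-type CCl4 livers only liver 34 carries the D505 sequencing index, which 3 oil livers and liver 35 share. The other 3 carry D503, which no oil liver has, so within an index at most 1 wild-type CCl4 liver can be set against oil. In a fit with the index as a covariate, these D503 livers enter that difference only by way of the livers labelled knockout. What the index stands for besides the library's tag is not stated.

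Markers of other cells moved with the CCl4 result. In wild-type livers all 12 cell division markers rose (summed level 6.22 to 16.6 CPM after oil, 24.2 to 912 CPM after CCl4), as did 7 of 11 macrophage markers (188 to 575 and 532 to 1179 CPM) and 4 of 9 stellate cell markers (140.0 to 363 and 459 to 1165 CPM). Of 14 hepatocyte markers 4 fell (110224 to 145023 and 64243 to 123131 CPM). Every one of these markers had counts in both groups. Their part in the rise of the ribosomal protein genes was not tested.

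Other genes of ribosome production gave the following counts in the same comparison. Of 50 ribosome assembly factors 14 rose and none fell, with a median log2 fold change of 0.48. Among them Nop58, a core protein of box C/D small nucleolar particles, was at 14.3 ± 3.04 CPM after oil (SD, n = 6) and 47.3 ± 17.9 after CCl4 (n = 4), and its partner Nop56 rose 2.12-fold. Rack1, a scaffold protein on the small subunit, went from 293 ± 14.6 to 468 ± 69.1 CPM, a 1.60-fold rise. Of 8 elongation factor genes 2 rose, Eef1g 1.57-fold and Eef1b2 1.42-fold. Of 30 initiation factor genes 3 rose and 2 fell, and of 19 subunits of RNA polymerase I, which transcribes ribosomal RNA, and its factors 2 rose. Proteins of the mitochondrial ribosome, which translates the mitochondrial genome, did not share the direction: of 75 tested none rose and 6 fell, with a median of -0.14.

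On Western diet the members were slightly lower than on low-fat diet, on the scale set by TMM normalization. In wild-type livers 24 of 82 fell and none rose by edgeR's quasi-likelihood test, where 17% of all 13005 genes fell and 20.4% rose. The median log2 fold change was -0.14 over members and -0.02 over all genes, and 10 of 82 members were above 0 (47% of all genes). Large- and small-subunit proteins had similar counts, 12 of 42 and 8 of 31 called, 4 of 5 paralogs fell and none of the 3 stalk proteins was called. Both the size and the direction depend on the scaling. With total counts in place of TMM, 2 members rose (Rpl12 and Rps12) and 2 fell (Rpl35a and Rpl7l1), where 31.6% of all genes rose and 6.02% fell. In that setting 55 of 82 members were above 0, and the median was 0.03 over members and 0.15 over all genes. With upper-quartile scaling 12 fell and none rose, where 12.8% of all genes fell and 23.1% rose. Under all of these scalings the member median was below that of all genes.

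**Figure D4:**
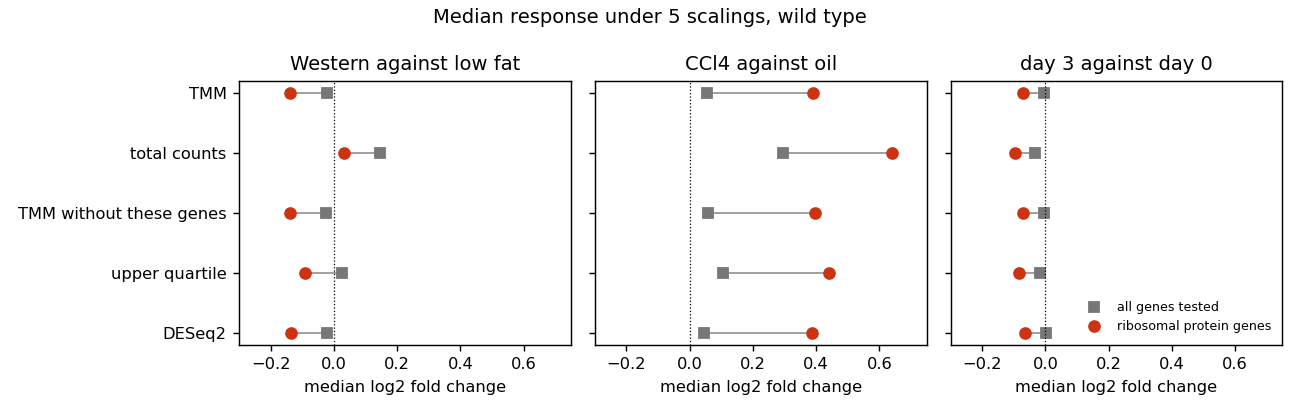
Median log2 fold change (horizontal axis) of the ribosomal protein genes (circles) and of all genes tested (squares) under 5 scalings (rows) in the wild-type comparisons. After CCl4 the members lie above all genes in each row, and on Western diet below them, although with total counts the diet median of the members is itself above 0.

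Rpl35a, a large-subunit protein, had the largest fall on Western diet. It was at 38.7 to 59.5 CPM on low-fat diet (median 50.8) and at 33.6 to 44.3 CPM in wild-type livers on Western diet (median 38.1). The groups overlapped, and the level was 1.33-fold lower (log2 -0.42 ± 0.08, edgeR adjusted p 0.00049). Rpl7l1, a paralog of Rpl7 that acts in assembly of the subunits, was at 57.1 to 70.3 CPM (median 63.3) and 46.1 to 58.4 CPM (median 50.6), 1.26-fold lower (edgeR adjusted p 0.000188). Both kept an adjusted p under 0.05 with total counts. Rpl36al, the paralog of Rpl36a, was 1.25-fold lower, and Rpl36a itself was not called (log2 -0.13 ± 0.08, edgeR adjusted p 0.197). Rps18 was 1.23-fold lower, Rps27 1.21-fold and its near-identical copy Rps27rt 1.23-fold, a pair whose reads may be split by counting. Rpl22l1, which rose most after CCl4, had a log2 fold change of 0.07 ± 0.16 on Western diet. Rpl7a was the only member without overlap between the groups, lower on Western diet, which held for 2.55% of all genes.

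In livers labelled knockout on Western diet, compared with the same low-fat livers, 10 of 82 fell and none rose, against 10.2% of all genes that fell and 15.1% that rose. The fallen members are 12.2% of those tested, a share like that of the background. Against wild-type livers on Western diet none was called (0.0154% of all genes were, higher); DESeq2 called none either, and 4 had an unadjusted edgeR p under 0.05. These were Rpl7l1 (log2 0.18 ± 0.07), Rpl35a (0.21 ± 0.09), Rps27l (0.16 ± 0.07) and Rps3a1 (0.17 ± 0.07), all higher in livers labelled knockout.

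Beside the fall on Western diet, 10 of 11 macrophage markers rose (summed level 194 to 520.4 CPM on low-fat diet and 557 to 1362 CPM in wild-type livers on Western diet), 7 of 9 stellate cell markers rose, and 12 of 14 hepatocyte markers fell (99524 to 135740 and 63757 to 99318 CPM). All 12 cell division markers rose as well. Their part in the result was not tested. Of 50 ribosome assembly factors 1 rose and 14 fell, with a median log2 fold change of -0.14, and of 76 proteins of the mitochondrial ribosome 1 rose and 19 fell, with a median of -0.13. Translation initiation factors gave 1 rise and 8 falls of 30.

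After partial hepatectomy the members did not rise as a group. Of 64 tested, 1 rose and none fell by edgeR's quasi-likelihood test at day 3 in wild-type livers, where 9.87% of all 11026 genes rose and 7.5% fell. The median log2 fold change was -0.07 over members and -0.00 over all genes, and 25 of 64 were above 0 (49.4% of all genes). At the same time all 12 cell division markers rose, from a summed 6.78 to 18.9 CPM at day 0 to between 174 and 424 CPM at day 3. Of 50 ribosome assembly factors 1 rose and 2 fell, with a median of -0.06. Of 9 stellate cell markers 5 rose, and of 14 hepatocyte markers 1 rose and 6 fell. The part of these cells in the result was not tested.

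The member that rose was Rpl39, at 8.95, 9.32, 13.7, 8.91 and 9.80 CPM at day 0 and 20.0, 18.4, 13.6, 14.4 and 16.2 CPM at day 3. The day 0 liver of mouse 14 was high, so the groups overlapped by a small margin. Rpl39 was 1.64-fold higher (log2 0.72 ± 0.19, edgeR adjusted p 0.012). Without day 3 liver 12 or 14, which held muscle genes, it was still called, at log2 0.64 and 0.78. In livers labelled knockout at day 3 it was at 9.21, 14.3, 11.9 and 10.9 CPM, which did not pass against day 0 (log2 0.19 ± 0.21, edgeR adjusted p 0.635). Rpl22l1 was at 8.80, 9.60, 12.2, 6.03 and 13.7 CPM at day 0 and 14.3, 18.4, 13.2, 19.2 and 11.6 CPM at day 3, and the groups overlapped. The difference (log2 0.64 ± 0.23) missed the threshold in edgeR (adjusted p 0.0633) and passed it in DESeq2 (adjusted p 0.0437). In livers labelled knockout no member was called against day 3 wild type (0.118% of all genes were higher and 0.0363% lower), with 3 at an unadjusted edgeR p under 0.05 and none called by DESeq2. About 1 in 20 genes would pass that unadjusted threshold by chance, and the share over all genes was not counted. Against day 0 no member was called (7.23% of all genes were higher and 5% lower), whereas DESeq2 called 1 higher and 1 lower (8.16% and 5.61% of all genes).

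The hepatectomy table held far fewer counts for most members than the other tables, so the test there is less sensitive for them. Only 64 of 83 members passed the filter on low counts, and Rps6, Rps16, Rpl19, Rpl38 and 14 other members besides Rpl3l did not. Rps6 was at 73.4 CPM in oil livers and at 0.312 CPM in day 0 livers (unscaled CPM over all genes of the experiment's own table), whereas Rpl4 was at 509.6 and 457 CPM and Rpl22 at 76.1 and 73.9 CPM. Leaving out Rpl3l, the median ratio of day 0 to oil was 0.218 over 82 members and 1.12 over 9011 other genes with at least 5 CPM after oil, and 76.8% of members but 3.82% of other genes were below a ratio of 0.5.

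The ratio moved with sequence shared with other genes. For each member the 50-base windows of its transcript that occur in a transcript of another gene were counted. What kind of gene the other was (pseudogene, paralog or unrelated) was not recorded. Among 13 members with under 25% of windows shared the median ratio was 0.897, among 48 with 25% to 75% it was 0.241, and among 21 with over 75% it was 0.0462. Across the 82 members Pearson's r of the shared percent with the log2 ratio was -0.496 and Spearman's rho -0.572, a description over genes measured in the same libraries. Rpl22, with 5.19% of windows shared, had a ratio of 0.970, and Rps27rt, with 91.1% shared, 0.00249. The hepatectomy table also lists 53379 genes, against 38293 in each of the others, and the annotation release and the treatment of reads matching several genes are not given in the sources used here, so levels and shares of these genes cannot be compared across tables.

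**Figure D5:**
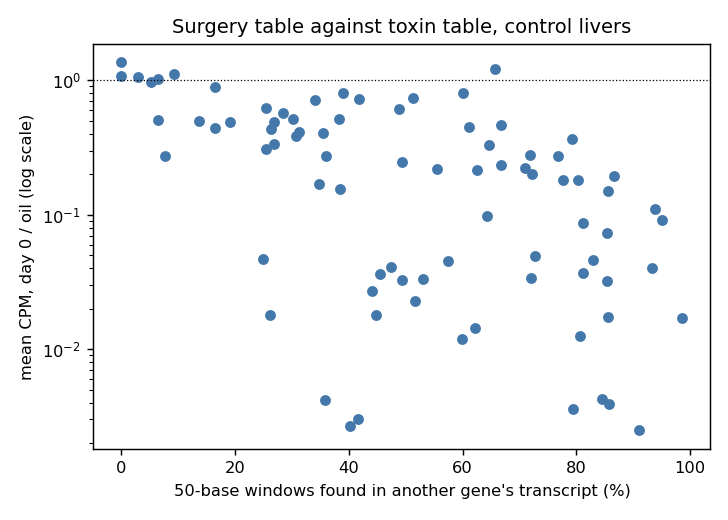
Percent of a member's 50-base transcript windows found in another gene's transcript (horizontal axis) against the ratio of its mean CPM in day 0 livers to that in oil livers (vertical axis, log scale), 1 point for each of 82 members. Members sharing over 75% of windows all lie below a ratio of 0.5, and those sharing under 25% have a median of 0.897.

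Fold changes within a table did not follow the shared sequence in the same way. After CCl4 in wild-type livers the median log2 fold change was 0.38 for members with under 25% of windows shared, 0.40 for those between and 0.35 for those over 75%, with 5 of 13, 23 of 48 and 8 of 21 called higher. At day 3 of surgery the medians were -0.08, -0.07 and -0.05, over 12, 40 and 12 members tested.

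The responses were compared directly in a joint fit of the 53 libraries over 12646 genes. Of the 82 members in it, 18 had too few counts to be tested in the hepatectomy table alone and entered through the other tables, so their differences from surgery rest on very low counts. The rise after CCl4 minus the change at day 3 of surgery was above 0 in 17 of 82 members tested and below 0 in none at an edgeR adjusted p under 0.05, against 2.29% and 3.8% of all genes, and 16 of the 17 were among the 64 members tested in the hepatectomy table alone. Among these 17 were Rpl30 (log2 difference 0.91 ± 0.20), Rpl34 (0.58 ± 0.13) and Rps3 (0.53 ± 0.12). The change on Western diet minus that after CCl4 was below 0 in 44 members and above 0 in none, against 8.37% and 7.72% of all genes, led by Rps4x (-0.74 ± 0.13), Rps15a (-0.69 ± 0.12), Rpl34 (-0.62 ± 0.12) and Rpl39 (-0.99 ± 0.20). The change on Western diet minus that of surgery was below 0 in 2 members, Rpl39 (-0.90) and Rps27a (-1.003), and above 0 in none, against 2% and 1.53% of all genes. The share of members called below 0 is like that of all genes, and with total counts 0 members were called. Rps27a stood at 2.15 CPM in day 0 livers against 63.6 CPM after oil (unscaled CPM), so its difference rests on low counts. Differences between experiments in the effect of the knockout label were called for none of the members in any pair of experiments. For CCl4 minus surgery 0.00791% of all genes were called higher and 0.0316% lower, for Western diet minus surgery 0.00791% in each direction, and for Western diet minus CCl4 0%.

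Rpl3l, the paralog of Rpl3 that is made in heart and skeletal muscle, met the rule through 1 group only. It had 58 counts in the day 3 wild-type liver 12 (15.1 CPM) and 3 counts in liver 14, the same livers that held skeletal muscle genes, and none in the other 3 livers of that group. In the other 8 groups it had 0 to 8 counts in all. It did not pass the filter on low counts in any experiment. With no filter it was called higher at day 3 in wild-type livers (log2 4.53) and lower under the knockout label than in wild type (-6.54), calls that rest on the counts of liver 12, and these fitted values depend on the prior count.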

How the data were processed

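RNA was measured by mRNA sequencing of snap-frozen whole liver, with 1 library per liver sample. The files deposited by the authors hold raw counts per gene in 1 table per experiment, made with TopHat2 2.0.11 and HTSeq on GRCm38, per the submitters' processing notes. The annotation release and the treatment of reads that match several genes are not given in the sources used here. No row without a gene name entered library sizes.

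Counts were tested with edgeR 4.0.16 (R 4.3.3): genes were kept by its expression filter, libraries scaled by TMM, and 1 quasi-likelihood model fitted per experiment with its 3 groups, with Benjamini-Hochberg adjustment over all genes tested and a threshold of 0.05. A joint model of the 53 libraries tested differences between responses. Levels are TMM-scaled CPM, and log2 differences of single livers used a pseudocount of 0.5 CPM. Errors of fold changes are SE. Symbols were matched to GENCODE annotation of GRCm38 and promoters to RefSeq. The tests were checked on simulated data with known changes. Alternatives were DESeq2 1.42.0, limma 3.58.1 (voom), other scalings and filters, the sequencing index, and each liver left out. Those within a sequencing index and without CCl4 livers 34 and 35 were chosen after seeing the data.

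The members and the other gene lists were chosen with earlier results of these data known, so no count over them is independent support. Members were named by rule: the 8 largest called rises and falls per comparison, the 4 smallest p per difference of responses, the paralogs with their partners, the stalk genes, Rpsa, Rps27a, Rps6, Rpl11 and Rpl5, and the most and least abundant. Single values of some members are not reported here. Within a group, mouse numbers in the labels name separate mice. Day 0 and day 3 livers share 5 numbers. Of these, 12N, 15 and 16 match in full, while 13 and 14 of day 0 stand as 13N and 14N at day 3. The labels do not say that shared numbers mark the same animal, and the deviations of same-numbered livers correlated by -0.02 to 0.09, so no pairing was used. Depth limits the members with few counts, most of all in the hepatectomy table.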

Additional observations from a re-analysis of the deposited data

Results flagged for a closer look

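A library far from the rest of its group was found in 7 of 108 groups of values checked, where chance gives about 1 in 20. The share of counts in the members was 0.8368% in low-fat liver 18, the highest of 9. In oil livers, Rpl22 was lowest in liver 24 at 72.25 CPM, and Rpl3 was lowest in liver 27 at 84.4 CPM. Rps4x was lowest in wild-type CCl4 liver 4 at 228.3 CPM, which was still above every oil liver. Rpl39 was highest in day 0 liver 14 at 13.68 CPM. Rpl3l was highest in low-fat liver 19 at 0.4168 CPM, and in day 3 wild-type liver 12, the liver with skeletal muscle genes, at 15.06 CPM.

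Responses differed between experiments by the joint edgeR test. The response to CCl4 minus that to surgery differed in 17 members, among them Rpl30 (log2 0.9149), Rpl34 (0.5781) and Rps3 (0.5293). In that difference 2.29% of all genes were called higher and 3.8% lower. The response to Western diet minus that to CCl4 differed in 44 members, among them Rps4x (-0.7364), Rps15a (-0.6916), Rpl34 (-0.6172) and Rpl39 (-0.9885). There 8.37% of all genes were called lower and 7.72% higher. Western diet minus surgery differed in 2 members, Rpl39 (-0.9041) and Rps27a (-1.003), the latter on low counts in the surgery livers. That is a share like the 2% of all genes called lower (1.53% were higher). The diet experiment differs from the other experiments in the age of the mice, the time, the treatment and the table of counts. The CCl4 and surgery experiments share the age of the mice and the days from treatment to the treated livers. They differ in the treatment, the kind of control liver and the table of counts. Within each contrast the differences named cannot be told apart.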

How the results depend on the processing

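The rise after CCl4 in wild-type livers kept its direction in every alternative run, with 24 (no filter) to 69 (total counts) members called higher, where 5.74% and 21.2% of all genes were, and 25 to 34 with 1 liver left out. Single members were called lower in some settings, not the same one throughout: Rps27l with the index as a covariate, Rpl36 without livers 34 and 35, and 1 member with voom. Under the knockout label against oil, 23 were called higher with total counts and 33 with the index as a covariate, where 8.03% and 11.2% of all genes were. There 1 was called lower with voom and 1 without livers 34 and 35. Within D505 each CCl4 arm is a lone liver, which says nothing about stability. The member median there was 0.54 in wild type and 0.41 under the knockout label. Leaving out 1 liver gave 12 to 17 higher.

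The fall on Western diet in wild type depended most on the scaling: with total counts 2 were called higher and 2 lower, and 55 members were above 0. Lower calls numbered 12 with upper-quartile scaling, 15 with a filter of 1 CPM, 5 within D501 and 6 within D502. Of all genes 12.8%, 15.7%, 12.7% and 3.28% were lower in these settings, in that order. With 1 liver left out the count was 15 to 28, lowest without Western wild-type liver 17. Total counts moved the median of all genes from -0.02 to 0.15 on diet and from 0.05 to 0.30 after CCl4, and turned the sign of Rpl22 (0.03139), Rps4x (0.02188), Rps6 (0.03424) and Rpsa (0.01351). Under the knockout label against low fat, 0 were lower with total counts, 3 with upper-quartile scaling, 5 with no filter and 6 with 1 CPM. The count was 5 with only the 2 groups, 1 within D501 and 0 within D502, where Rpl8 turned to 0.002104. In the same order, 4.73%, 7.44%, 5.04%, 9.04%, 8.83%, 4.99% and 1.41% of all genes were lower. Leaving out 1 liver gave 3 (without knockout-labelled liver 2 or low-fat liver 18) to 14. The cause of these moves was not tested.

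After surgery in wild type, 2 were called higher with DESeq2, with no filter (the second being Rpl3l, carried by liver 12) and with voom, and 1 to 2 higher and 0 to 1 lower with 1 liver left out. With DESeq2, no filter and voom, 10.9%, 6.18% and 9.91% of all genes were higher. Under the knockout label, 1 was lower against wild type with no filter (Rpl3l again), and against day 0 DESeq2 called 1 higher and 1 lower, the fit of only 2 groups 1 lower, and leaving out 1 liver 0 to 1 higher (1 without liver 17 or 19). Of all genes 0.561% were lower in that comparison with no filter. Against day 0, 8.16% were higher and 5.61% lower with DESeq2, and 4.5% lower with only 2 groups. Without liver 17 or 19, 7.4% and 5.7% were higher. With the mouse number as a replicate block, day 3 against day 0 gave 1 higher and 0 lower of 61 tested (9.32% and 7.08% of all genes), and Rpl39 was at 0.7339. Only mice 15 and 16 correlated best with their own number. The index as a covariate was not run for surgery, since all day 3 livers share 1 index that no day 0 liver has. CCl4 minus surgery gave 41 members higher with total counts and 9 with no filter, where 1389 of 12646 and 183 of 22814 genes were higher. Diet minus surgery gave 0 members with total counts, where 559 of 12646 genes were higher and 117 lower. Of the values for single members under alternatives other than a left-out liver, 539 kept direction and side of the threshold, 118 missed the threshold and 5 changed sign.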
